A study of Rattus norvegicus with 11 samples.

Results

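The genes described here are the YAP, TAZ and TEAD pathway genes of the rat spinal cord, chosen by gene name: Yap1, Wwtr1, Tead1, Tead2, Tead3, Tead4, Cyr61, Ctgf, Amotl2 and Lats2. All 10 were found once each among the 30443 genes of the count and FPKM tables, and 9 of them were among the 14867 genes tested. Tead2 was the exception, since its FPKM stayed below 1 in every library. The tables list them as ENSRNOG00000005933 (Yap1), ENSRNOG00000016617 (Wwtr1), ENSRNOG00000015488 (Tead1), ENSRNOG00000020695 (Tead2), ENSRNOG00000000506 (Tead3), ENSRNOG00000005608 (Tead4), ENSRNOG00000014350 (Cyr61), ENSRNOG00000015036 (Ctgf), ENSRNOG00000008487 (Amotl2) and ENSRNOG00000056343 (Lats2).

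YAP and its paralogue TAZ, which Wwtr1 encodes, are transcriptional coactivators that cannot bind DNA themselves. In the Hippo pathway the kinases MST1 and MST2 activate LATS1 and LATS2, which phosphorylate YAP and TAZ and hold them in the cytoplasm or mark them for degradation. When the kinases are quiet, for example in spread cells on a stiff matrix, YAP and TAZ enter the nucleus and act on genes through the DNA-binding TEAD proteins. In the nervous system they are known mainly from astrocytes, neural progenitors, Schwann cells and cells of the vessel wall, and neurons hold little of either.

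RNA-seq was performed on spinal cord of female Sprague-Dawley rats that were 12 to 14 weeks old at surgery, so that age at collection differed between times. Rats with spinal cord injury (SCI), a moderate contusion at T9, were collected 1 month (1M), 3 months (3M) or 6 months (6M) later, and 0.5 mm of cord at the epicenter was taken. Control rats had a sham laminectomy without contusion and were collected at 6 months, a later time after surgery than that of the 1M and 3M rats. The 1M, 3M and control groups had 3 libraries each and 6M had 2, each library being a pool of 3 rats.

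SCI libraries held 21430564 to 49986531 counts and controls 10057646 to 19241259. Thus 3 counts stood for 0.0607 to 0.133 CPM (counts scaled to library size) after SCI and 0.171 to 0.356 CPM in controls. The deepest library, 1M replicate 1, held 49986531 counts, and the next SCI library, 6M replicate 2, held 29565174. The counts of 1M replicate 1 exceeded the read pairs stated for it, and an alternative fit halved them. Control replicates 1 and 2 were processed in a batch of their own and control replicate 3 in another, and as SCI and control libraries never shared a batch, the effects of batch and of injury cannot be told apart. Within groups the libraries correlated at 0.968 to 0.993 over tested genes on log2 CPM, lowest between control replicates 1 and 2. Neuron markers, which define the tissue, summed to 176 to 1067 FPKM after SCI and 1519 to 2310 FPKM in control. In bulk tissue, fewer cells of a type and less RNA per cell cannot be told apart, and neither the phosphorylation nor the location of YAP and TAZ was measured.

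Promoters from RefSeq (build GRCr8, 250 bases before to 50 after the transcript start) were found for 6 of the 10 genes: Yap1, Wwtr1, Tead3, Cyr61, Ctgf and Amotl2. RefSeq names Cyr61 as Ccn1 and Ctgf as Ccn2. The promoters of Tead1, Tead2, Tead4 and Lats2 are not shown. The core of the TEAD site, GGAATG on either strand (CATTCC when read on the other), was present in 4 of the 6, and these are printed because TEAD proteins are how YAP and TAZ reach their targets. Capitals mark the TEAD core, and each sequence is read 5′ to 3′ on the strand of the gene. Ctgf lies at chr1:22624565-22624864 (minus strand), Cyr61 at chr2:237225640-237225939 (minus strand), Amotl2 at chr8:112182376-112182675 (plus strand) and Yap1 at chr8:13451388-13451687 (minus strand).
Ctgf: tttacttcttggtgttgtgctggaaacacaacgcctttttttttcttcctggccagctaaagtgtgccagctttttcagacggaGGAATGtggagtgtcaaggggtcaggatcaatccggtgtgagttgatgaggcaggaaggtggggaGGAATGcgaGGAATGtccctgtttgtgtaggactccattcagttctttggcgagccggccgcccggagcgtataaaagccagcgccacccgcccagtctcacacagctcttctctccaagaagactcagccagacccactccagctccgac
Cyr61: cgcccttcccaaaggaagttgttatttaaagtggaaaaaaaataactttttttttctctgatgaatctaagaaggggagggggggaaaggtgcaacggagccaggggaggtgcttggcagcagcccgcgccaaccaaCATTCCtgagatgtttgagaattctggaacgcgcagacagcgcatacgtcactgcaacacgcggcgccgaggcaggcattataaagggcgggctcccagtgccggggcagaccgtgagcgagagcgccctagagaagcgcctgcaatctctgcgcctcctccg
Amotl2: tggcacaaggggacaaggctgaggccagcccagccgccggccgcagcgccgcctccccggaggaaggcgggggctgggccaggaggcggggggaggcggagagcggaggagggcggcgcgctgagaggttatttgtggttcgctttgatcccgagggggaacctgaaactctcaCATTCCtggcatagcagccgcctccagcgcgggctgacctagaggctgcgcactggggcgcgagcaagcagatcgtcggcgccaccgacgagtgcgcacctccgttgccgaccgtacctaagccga
Yap1: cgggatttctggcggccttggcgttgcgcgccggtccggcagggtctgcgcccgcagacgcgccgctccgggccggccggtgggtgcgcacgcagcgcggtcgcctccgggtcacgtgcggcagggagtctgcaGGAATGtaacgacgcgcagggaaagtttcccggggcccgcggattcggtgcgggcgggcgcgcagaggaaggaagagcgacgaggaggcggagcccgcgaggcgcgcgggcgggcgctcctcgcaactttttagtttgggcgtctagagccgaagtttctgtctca

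Ctgf held 3 copies of the core, whose first bases lie at −166, −101 and −92 relative to the start. Cyr61 held 1 at −113, Amotl2 1 at −76 and Yap1 1 at −116. Of all 33469 promoters of the same length, 14.2% hold at least 1 core and 0.0956% (32 promoters) hold 3 or more. The TATA box TATAAA, on either strand, was found in Ctgf at −31 and in Cyr61 at −34, and in 14.2% of all promoters. The AP-1 site TGACTCA, on either strand, was in none of the 6 windows and in 4.63% of all. A match is a stretch of letters in this window and does not show that a factor binds there.

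**Figure D1:**
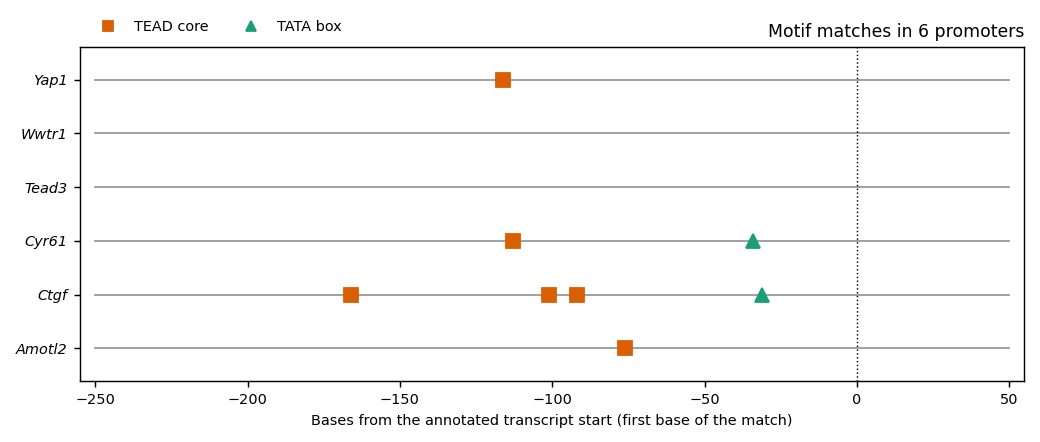
Motif matches in the 6 promoters, with distance from the annotated transcript start in bases on the x axis and 1 line per gene. Squares stand for the TEAD core and triangles for the TATA box; Ctgf carries 3 squares, while Wwtr1 and Tead3 carry neither mark.

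In the injured cord the coactivator genes Wwtr1 and Yap1 and the TEAD gene Tead1 had the largest fold changes at 1M and 3M. Tead3 rose less at each time, Tead4 passed at 3M and 6M, and of the classical targets Cyr61 passed at 3M and 6M and Ctgf at no time. Of the 9 tested genes, 5 were higher at 1M than in control, against 25.5% of all tested genes. At 3M 8 of 9 were higher (29.7% of all tested genes), and at 6M 8 of 9 (26.8%). None was lower at any time, whereas 31.5%, 31.4% and 27.2% of all tested genes were lower at 1M, 3M and 6M. At 1M the 9 had a median log2 fold change of 0.54 (−0.05 over all tested genes), at 3M of 1.01 (0 over all) and at 6M of 1.02 (0.00 over all). A gene was counted at an adjusted p under 0.05 in edgeR's quasi-likelihood test with Benjamini-Hochberg adjustment over all 14867 tested genes. Each log2 fold change is given ± SE, derived as its absolute value divided by the square root of the test's F statistic.

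With the study's stricter limits (fold change above 2, adjusted p below 0.01), 3 genes passed at 1M (10.5% of all tested genes), 4 at 3M (12.7%) and 5 at 6M (10.6%). Yap1, Wwtr1 and Tead1 passed at each time, Tead4 at 3M alone, and Cyr61 and Lats2 at 6M alone; whether the times differ for these genes is given below. In CPM, all libraries lay above all controls for 6 of the 10 genes at 1M (27.0% of all tested genes), and for 10 of 10 at both 3M (34.6%) and 6M (35.2%).

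**Figure D2:**
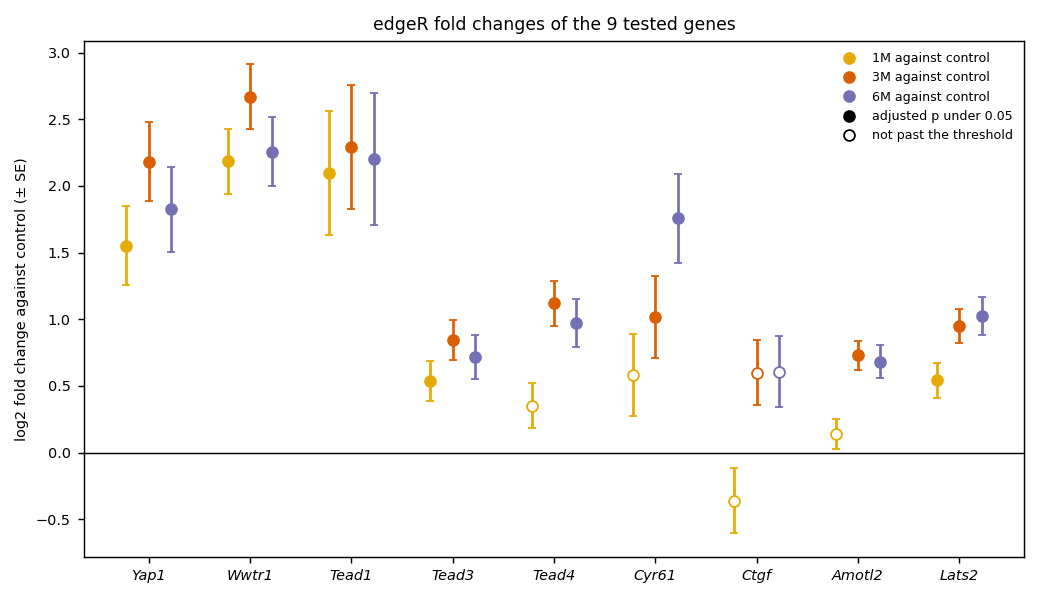
Log2 fold change against control on the y axis for the 9 tested genes, with bars of 1 SE from the edgeR fit over 11 libraries; colours stand for 1M, 3M and 6M, and open points did not pass an adjusted p of 0.05. Wwtr1 reaches 2.67 at 3M and Ctgf lies at −0.36 at 1M.

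Yap1, the gene of YAP, had 19.4, 25.7 and 27.5 CPM at 1M, 41.7, 39.7 and 30.8 CPM at 3M and 28.1 and 30.2 CPM at 6M, against 11.9, 3.79 and 8.66 CPM in control replicates 1, 2 and 3. Every SCI library lay above every control, and the lowest value belonged to control replicate 2. Its log2 fold change was 1.55 ± 0.30 at 1M (adjusted p = 0.00155, edgeR), 2.18 ± 0.30 at 3M (adjusted p = 1.43e-04, edgeR) and 1.82 ± 0.32 at 6M (adjusted p = 9.37e-04, edgeR), so Yap1 rose at all times. These lie at the 93.7th, 97.3rd and 96.5th percentile of all tested genes.

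Wwtr1, the gene of TAZ, had 11.7, 16.1 and 17.6 CPM at 1M, 24.2, 21.0 and 18.2 CPM at 3M and 14.6 and 17.2 CPM at 6M, against 4.39, 2.13 and 3.31 CPM in control. As for Yap1, the SCI and control libraries did not overlap, and control replicate 2 was again lowest. Wwtr1 rose by a log2 fold change of 2.18 ± 0.24 at 1M (adjusted p = 6.55e-05, edgeR), 2.67 ± 0.24 at 3M (adjusted p = 1.55e-05, edgeR) and 2.26 ± 0.26 at 6M (adjusted p = 1.01e-04, edgeR).

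Both coactivators peaked in mean at 3M, but the differences between times did not pass the test. Yap1 at 3M against 1M had a log2 fold change of 0.63 ± 0.27 (adjusted p = 0.184, edgeR), and Wwtr1 had 0.49 ± 0.21 (adjusted p = 0.182, edgeR). The libraries at 3M nevertheless lay above those at 1M for both genes. Per length, in FPKM, TAZ transcripts stood below YAP transcripts in every library, with Wwtr1 to Yap1 ratios that averaged 0.795 ± 0.040 at 1M, 0.689 ± 0.025 at 3M and 0.682 ± 0.039 at 6M, against 0.622 ± 0.274 in control (SD, n = 3, 3, 2 and 3). The wide control spread came from control replicate 2, whose ratio was 0.936, with 32 counts of Yap1 and 18 of Wwtr1. Over the 8 SCI libraries, which share the tissue but differ in time and depth, log2 CPM of Yap1 and Wwtr1 varied together, with a Pearson r of 0.953. As both means were highest at 3M, this r also holds differences between times.

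**Figure D3:**
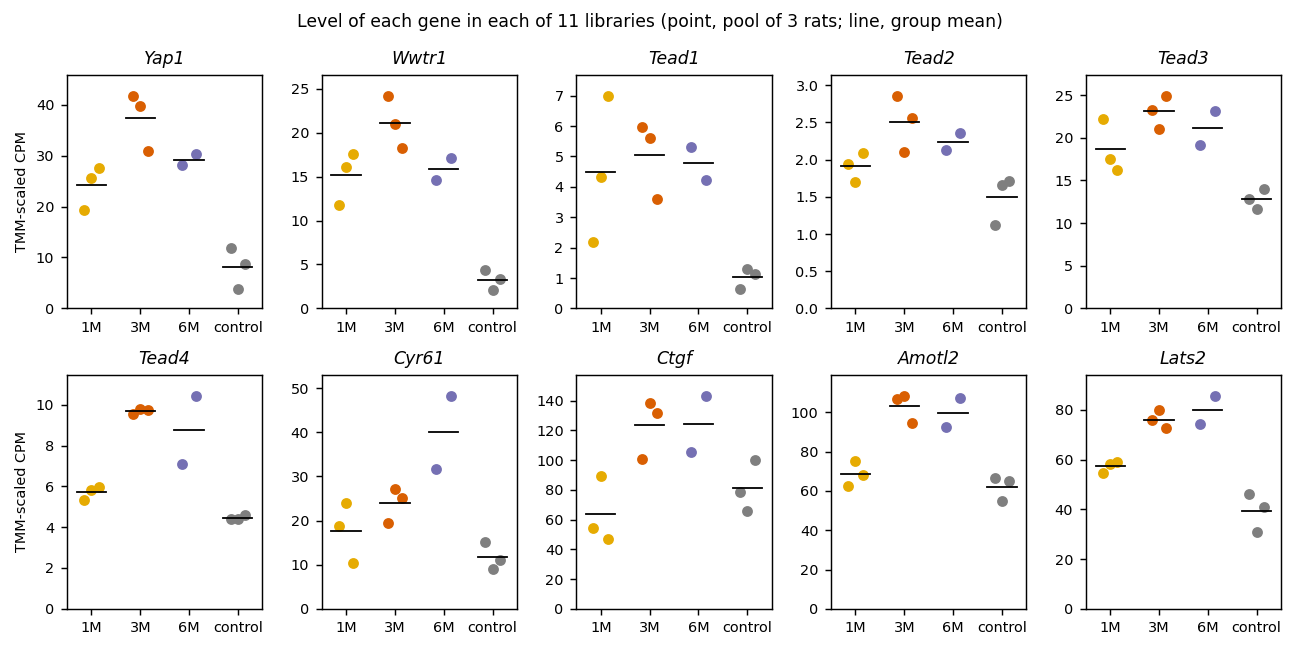
CPM scaled by the trimmed mean of M values (TMM) of each of the 10 genes, on an axis from 0, by group; each point is a library (a pool of 3 rats) and each line a group mean. Yap1, Wwtr1 and Tead1 show all SCI points above the controls, while Ctgf at 1M, with 47.2 to 89.3 CPM, overlaps the controls.

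The 4 TEAD genes encode the DNA-binding partners, which share 1 recognition site and differ in where they are expressed. Tead1 had the largest fold changes of those tested, with 2.18, 4.32 and 6.99 CPM at 1M, 5.97, 5.604 and 3.61 CPM at 3M and 5.31 and 4.24 CPM at 6M, against 0.653, 1.30 and 1.14 CPM in control. SCI and control did not overlap, while the times after SCI did, and the controls rest on only 7, 11 and 20 counts, and 1M replicate 1 was the lowest SCI library. Tead1 rose by a log2 fold change of 2.099 ± 0.47 at 1M (adjusted p = 0.00349, edgeR), 2.29 ± 0.46 at 3M (adjusted p = 0.00164, edgeR) and 2.203 ± 0.50 at 6M (adjusted p = 0.00387, edgeR).

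Tead3 had 22.1, 17.6 and 16.2 CPM at 1M, 23.3, 21.1 and 24.9 CPM at 3M and 19.1 and 23.1 CPM at 6M, against 12.8, 11.6 and 14.0 CPM in control. All SCI libraries were higher than all controls, by a smaller margin than for Tead1. Tead3 rose by a log2 fold change of 0.54 ± 0.15 at 1M (adjusted p = 0.0105, edgeR), 0.84 ± 0.15 at 3M (adjusted p = 6.73e-04, edgeR) and 0.72 ± 0.16 at 6M (adjusted p = 0.00399, edgeR).

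Tead4 had 5.34, 5.83 and 5.97 CPM at 1M, 9.57, 9.81 and 9.78 CPM at 3M and 7.09 and 10.4 CPM at 6M, against 4.39, 4.39 and 4.62 CPM in control. The 3M libraries lay close together, and the 1M libraries lay just above the controls. At 1M the log2 fold change was 0.35 ± 0.17 (adjusted p = 0.0973, edgeR), which did not pass the threshold, although it did under 7 of 23 alternative settings. Tead4 rose by 1.12 ± 0.17 at 3M (adjusted p = 2.41e-04, edgeR) and by 0.97 ± 0.18 at 6M (adjusted p = 0.00134, edgeR).

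Tead2 was the least abundant TEAD gene after SCI, with 1.94, 1.698 and 2.09 CPM at 1M, 2.86, 2.101 and 2.56 CPM at 3M and 2.13 and 2.35 CPM at 6M, against 1.12, 1.66 and 1.71 CPM in control. The 3M and 6M libraries lay above the controls, and 1M replicate 2 lay among them. Without a filter on FPKM, over 30443 genes, its log2 fold change was 0.47 ± 0.26 at 1M (adjusted p = 0.246, edgeR), 0.85 ± 0.26 at 3M (adjusted p = 0.0217, edgeR) and 0.67 ± 0.29 at 6M (adjusted p = 0.104, edgeR).

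The make-up of the family's FPKM differed between SCI and control. Tead1 made up 30.5% ± 12.7 of the summed TEAD FPKM at 1M, 28.0% ± 6.5 at 3M and 28.0% ± 7.9 at 6M, against 11.5% ± 4.7 in control (SD, n = 3, 3, 2 and 3). The lowest SCI library, 1M replicate 1, had 18.5% and the highest control, replicate 2, had 16.1%. Tead3 remained the largest part in all libraries but 1M replicate 3, at 47.4% ± 10.8, 45.1% ± 5.4 and 44.2% ± 3.4 at 1M, 3M and 6M, against 58.6% ± 5.8 in control. The Tead3 shares at 1M overlapped the controls, as 1M replicate 1 had 57.4% and control replicate 2 had 53.5%.

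The sum of the 4 TEAD genes was 5.66 ± 0.77 FPKM at 1M, 7.56 ± 0.48 at 3M and 6.88 ± 0.39 at 6M, against 2.71 ± 0.29 in control. The sum of Yap1 and Wwtr1 was 16.5 ± 3.3, 25.7 ± 3.7 and 19.8 ± 1.4 FPKM, against 4.21 ± 2.17. In a limma fit on log2(FPKM + 1) the median gene lay 0.31, 0.36 and 0.30 higher at 1M, 3M and 6M than in the TMM fit. The gap between the scales differed by gene, so the shares and ratios carry part of it: the mean after SCI over that in control was 6.22 in FPKM and 4.63 in CPM for Tead1, and 1.90 in FPKM and 1.63 in CPM for Tead3. The ratio of the coactivators to the TEAD sum was 2.91 ± 0.39, 3.38 ± 0.30 and 2.87 ± 0.04, against 1.57 ± 0.87 in control, where control replicate 1 had 2.49 and replicate 2 had 0.762.

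**Figure D4:**
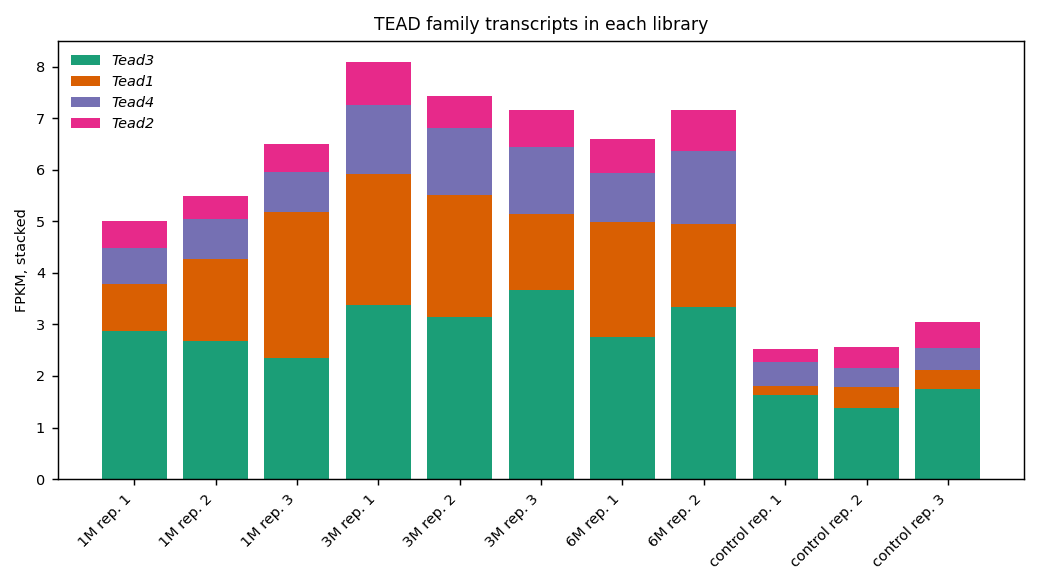
FPKM of the 4 TEAD genes stacked from 0 for each of the 11 libraries, ordered as 1M, 3M, 6M and control. Bars for SCI reach 4.996 to 8.10 FPKM and those for control 2.52 to 3.05, and the Tead1 segment is at least 0.922 FPKM after SCI and at most 0.414 in control.

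Cyr61 and Ctgf encode secreted matrix-associated proteins of the CCN family and are the most widely used readouts of YAP and TAZ activity. Cyr61 had 18.7, 24.0 and 10.3 CPM at 1M, 19.5, 27.2 and 25.0 CPM at 3M and 31.8 and 48.2 CPM at 6M, against 15.2, 9.13 and 11.1 CPM in control. The 1M libraries overlapped the controls through 1M replicate 3, and both 6M libraries lay above all others. At 1M the log2 fold change of 0.58 ± 0.31 did not pass (adjusted p = 0.130, edgeR). It did without 1M replicate 3, at 0.85 (adjusted p = 0.0209, edgeR).

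At 3M Cyr61 rose by a log2 fold change of 1.01 ± 0.31 (adjusted p = 0.0151, edgeR), a call that was lost without control replicate 2 (adjusted p = 0.0503) or control replicate 3 (adjusted p = 0.0505). At 6M it rose by 1.76 ± 0.33 (adjusted p = 0.00148, edgeR). Its fold change there was at the 96.1st percentile of all tested genes.

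Ctgf was the most abundant of the 10 genes in every group per length, at 21.9 ± 8.4 FPKM at 1M, 44.0 ± 6.6 at 3M and 43.7 ± 8.6 at 6M, against 21.999 ± 6.1 in control. Its CPM values were 54.5, 89.3 and 47.2 for 1M, then 101, 139 and 132 for 3M, and 106 with 143 for 6M, against 78.9, 65.8 and 99.8 in control. Thus 1M replicates 1 and 3 lay below all controls, while 3M and 6M libraries lay above them, some by very little. The log2 fold change was −0.36 ± 0.25 at 1M (adjusted p = 0.231, edgeR), 0.60 ± 0.24 at 3M (adjusted p = 0.0536, edgeR) and 0.61 ± 0.27 at 6M (adjusted p = 0.0789, edgeR), so Ctgf did not pass at any time.

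The value for Ctgf at 3M sits at the threshold, since it passed under 13 of 23 alternative settings. Among these was DESeq2's Wald test (adjusted p = 0.0278) and the fit of the 3M and control libraries alone (adjusted p = 0.0194, edgeR). At 1M it passed as lower, at −0.68, only without 1M replicate 2 (adjusted p = 0.0255, edgeR).

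Amotl2 encodes an angiomotin-like protein that binds YAP and holds it outside the nucleus, and it is itself a target of YAP. It had 62.5, 75.4 and 68.2 CPM at 1M, 107, 108 and 94.5 CPM at 3M and 92.4 and 108 CPM at 6M, against 66.8, 54.8 and 65.2 CPM in control. The 1M libraries overlapped the controls and the later ones did not. Its log2 fold change was 0.14 ± 0.11 at 1M (adjusted p = 0.304, edgeR), and it rose by 0.73 ± 0.11 at 3M (adjusted p = 2.75e-04, edgeR) and by 0.68 ± 0.12 at 6M (adjusted p = 0.00105, edgeR).

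Lats2 encodes the kinase that phosphorylates YAP and TAZ, and it too is a target, which closes a feedback loop. It had 54.5, 58.4 and 59.2 CPM at 1M, 75.7, 79.8 and 72.6 CPM at 3M and 74.4 and 85.6 CPM at 6M, against 46.2, 30.8 and 40.8 CPM in control. No SCI library fell within the control range. Lats2 rose by a log2 fold change of 0.54 ± 0.13 at 1M (adjusted p = 0.00523, edgeR), 0.95 ± 0.13 at 3M (adjusted p = 1.44e-04, edgeR) and 1.02 ± 0.14 at 6M (adjusted p = 2.61e-04, edgeR).

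Set against the coactivators per length, both CCN genes had lower mean ratios after SCI than in control. Ctgf per unit of Yap1 plus Wwtr1 FPKM was 1.34 ± 0.44 at 1M, 1.76 ± 0.45 at 3M and 2.199 ± 0.28 at 6M, against 5.91 ± 2.06 in control, and the highest SCI library (2.39) lay below the lowest control (3.74). The same ratio for Cyr61 was 0.419 ± 0.191, 0.367 ± 0.103 and 0.802 ± 0.175, against 1.00 ± 0.32 in control. At 6M this ratio for Cyr61 overlapped the controls, with 0.679 and 0.926 against 0.789 to 1.37.

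**Figure D5:**
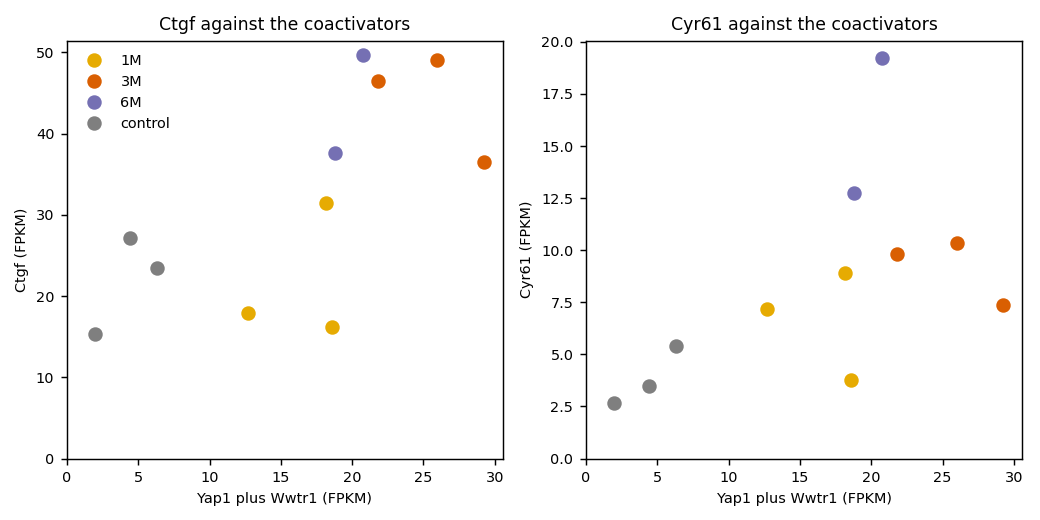
Ctgf (left) and Cyr61 (right) in FPKM on the y axis against the summed FPKM of Yap1 and Wwtr1 on the x axis, 1 point per library, coloured by group. The SCI points lie at 12.7 to 29.2 FPKM of the coactivators and the controls at 1.96 to 6.29, while Ctgf at 1M, at 16.2 to 31.5 FPKM, covers the same heights as in control, at 15.3 to 27.2.

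The order of levels, in FPKM, changed between groups. After Ctgf and Amotl2, control libraries had Lats2 (4.56 ± 1.37), Cyr61 (3.85 ± 1.39) and Yap1 (2.78 ± 1.69), whose ranges overlapped from each gene to the next. At 3M the order after Ctgf was Amotl2 (17.3 ± 1.5), Yap1 (15.2 ± 2.3), Lats2 (11.5 ± 0.6), Wwtr1 (10.5 ± 1.4) and Cyr61 (9.17 ± 1.60), and from Amotl2 to Cyr61 the only neighbours that did not overlap were Yap1 and Lats2. Tead1 was the lowest of the 10 in control at 0.313 ± 0.127 FPKM, overlapping Tead2, and stood above Tead4 and Tead2 without overlap at each time after SCI.

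The design also asks whether levels differ between times after SCI. At 3M against 1M, 3 of 9 genes were higher (5.02% of all tested genes) and none was lower. Tead4 was higher by a log2 fold change of 0.77 ± 0.16 (adjusted p = 0.0175, edgeR), Ctgf by 0.96 ± 0.24 (adjusted p = 0.0399, edgeR) and Amotl2 by 0.59 ± 0.11 (adjusted p = 0.0132, edgeR). Within batch 2, which held 1M replicates 1 and 2 and all 3M libraries, the edgeR values were 0.81 for Tead4 (adjusted p = 0.00704), 0.80 for Ctgf (adjusted p = 0.0755) and 0.59 for Amotl2 (adjusted p = 0.00894). The count of 3 dropped to 0 on leaving out 1M replicate 1 or either of 3M replicates 1 and 2. It was 1 on leaving out 3M replicate 3, and 5 on leaving out control replicate 2. Calls over all 14867 tested genes, in either direction, varied with these settings too. They were 389 without 1M replicate 1, 270, 414 and 285 without 3M replicates 1, 2 and 3, and 1585 without control replicate 2.

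At 6M against 1M, 4 of 9 genes were higher (6.12% of all tested genes) and none was lower. Both 6M libraries formed a batch with no other library, so time and batch cannot be told apart in this contrast. Cyr61 was higher by a log2 fold change of 1.18 ± 0.32 (adjusted p = 0.0422, edgeR), Ctgf by 0.97 ± 0.27 (adjusted p = 0.0451, edgeR), Tead4 by 0.62 ± 0.17 (adjusted p = 0.0453, edgeR) and Amotl2 by 0.54 ± 0.12 (adjusted p = 0.0195, edgeR). Leaving out 1M replicate 1 or 6M replicate 2 gave a count of 0. Leaving out 1M replicate 3, control replicate 3 or any 1 of the 3M libraries gave 1. Over all tested genes the calls in either direction were 913 without 1M replicate 1 and 256 without 6M replicate 2. They were 1065 to 1221 in the settings that gave 1. Lats2 did not pass in either contrast, at 0.41 ± 0.13 for 3M (adjusted p = 0.0736, edgeR) and 0.48 ± 0.14 for 6M against 1M (adjusted p = 0.0558, edgeR). At 6M against 3M, 0 of 9 genes passed in edgeR, 1 (Cyr61) had an unadjusted p under 0.05, and the count was also 0 in DESeq2, limma and the other alternatives. Few of all 14867 tested genes passed in either direction in this contrast. They were 5 with DESeq2 size factors, 3 with total counts and 133 in DESeq2's Wald test, so the count of 0 is not particular to these genes. Time and batch cannot be told apart here either.

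Other genes of the pathway were described from 7 lists. Of the 9 genes of the Hippo kinase core and its adaptors, 6 were higher at both 1M and 3M and 7 were higher at 6M, with none lower. Over all tested genes 25.5%, 29.7% and 26.8% were higher at 1M, 3M and 6M, and 31.5%, 31.4% and 27.2% lower. Mob1b, which encodes an activator of the LATS kinases, had 6.96 ± 2.61 CPM at 3M against 0.907 ± 0.144 CPM in control (SD, n = 3 each) and rose by 2.92 ± 0.43 at 3M on the log2 scale (adjusted p = 2.42e-04, edgeR). In control Mob1b lay near the 0.1 FPKM floor, at 0.1 to 0.16 FPKM, so the size of its fold change rests on few counts. Its paralogue Mob1a rose by 0.86 ± 0.11, the kinase gene Lats1 by 0.67 ± 0.12, and Wwc1, the gene of the adaptor KIBRA, by 0.65 ± 0.13.

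Of the 8 other kinases that act on LATS, 4 were higher and 2 lower at 3M, where 29.7% of all tested genes were higher and 31.4% lower. Map4k1, a kinase of blood-derived cells, had 23.0 ± 2.3 CPM at 1M, 17.4 ± 2.6 at 3M and 13.4 ± 1.3 at 6M, against 6.10 ± 1.17 in control. At 3M Taok1 rose by 0.88 ± 0.30 and Map4k5 by 0.65 ± 0.24 on the log2 scale, and Map4k2 fell, at −0.76 ± 0.13.

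Of the 8 binding partners that restrain YAP, TAZ or TEAD, 4 were higher and 2 lower at 3M, beside the same 29.7% and 31.4% of all tested genes. Ptpn14, the gene of a phosphatase that binds YAP, rose by 1.55 ± 0.37, Amotl1, an angiomotin relative of Amotl2, by 1.45 ± 0.33, and Vgll4, which competes with YAP for TEAD, by 0.74 ± 0.16. Btrc, which encodes the ubiquitin ligase subunit that recognises phosphorylated YAP, fell, at −0.67 ± 0.11. All 3 genes of LIM proteins that bind LATS were higher at 3M and 6M, and 2 at 1M. Of all tested genes, 26.8% were higher at 6M and 25.5% at 1M. Limd1 rose by 1.11 ± 0.25 and Wtip by 1.03 ± 0.16 at 3M on the log2 scale. Ajuba had 13.5 ± 1.3 CPM at 1M, 26.7 ± 1.6 at 3M and 28.9 ± 8.1 at 6M, against 14.8 ± 2.0 in control, and was higher at 3M than at 1M (log2 fold change 0.99, adjusted p = 0.00781, edgeR), like Amotl2, Tead4 and Ctgf.

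Among the 3 Vestigial-like cofactors, which bind TEAD in place of YAP, only Vgll3 was tested. It had 4.40 ± 1.04 CPM at 1M, 9.50 ± 0.26 at 3M and 10.1 ± 2.2 at 6M, against 1.69 ± 1.06 in control, and rose at each time. Vgll1 and Vgll2 stayed at the 0.1 FPKM floor.

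Of the 16 tested genes on a list of 18 other YAP and TAZ targets, 8 were higher and 1 was lower at 1M. At 3M 13 were higher, and at 6M 11. Over all tested genes 25.5%, 29.7% and 26.8% were higher at 1M, 3M and 6M, and 31.5% were lower at 1M. At 3M Myof, which encodes the membrane-repair protein myoferlin, rose by 1.61 ± 0.19, the receptor tyrosine kinase gene Axl by 1.51 ± 0.10 and the stress gene Gadd45a by 1.42 ± 0.16. Axl had its highest level at 1M, with 333 ± 19 CPM, against 89.4 ± 9.8 CPM in control, and was lower at 3M than at 1M (log2 fold change −0.38). Igfbp3, named after its values were seen as the 1 gene that was lower, had 51.3 ± 2.0 CPM at 1M against 130 ± 33 CPM in control. Promoters were found for 12 of these targets, and 2 of them (16.7%), those of Ptpn14 and Nuak2, held the TEAD core. This is near the 14.2% of all promoters that hold it.

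Of the 4 other CCN genes, Nov and Wisp1 rose at 3M, by 2.09 ± 0.34 and 1.41 ± 0.29 on the log2 scale. The rest did not pass, and 29.7% of all tested genes were higher at 3M. Nov had 106 ± 31 CPM at 1M, 143 ± 64 at 3M and 78.7 ± 13.1 at 6M, against 33.6 ± 7.8 in control. Against control, the largest log2 fold change of Ctgf was 0.61.

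Marker lists of other cell types moved to differing degrees beside these genes, and their part in the results was not tested. The 4 ependymal markers in the tables (Ccdc153, Rsph1, Tmem212 and Dynlrb2) were not called at 1M and were all higher at 3M and 6M, both against control and against 1M, the same order in time as Amotl2. Their summed level was 11.5 to 17.1 FPKM at 1M, 32.3 to 33.6 at 3M and 37.0 to 61.7 at 6M, against 11.9 to 13.9 in control. None of them was at 0. Of all tested genes, 29.7% and 26.8% were higher at 3M and 6M than in control, and 5.02% and 6.12% than at 1M. Pericyte and smooth muscle markers were also higher than at 1M in 3 of 7 at both times, and Schwann cell markers in 1 and 3 of 4.

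Of 7 pericyte and smooth muscle markers 3, 4 and 5 were higher at 1M, 3M and 6M, and their sum was 133 to 158, 194 to 229 and 232 to 309 FPKM, against 98.3 to 117 in control. Of 6 tested endothelial markers 3, 5 and 5 were higher, and these 6 summed to 40.7 to 44.4, 53.3 to 56.2 and 50.2 to 58.5 FPKM, against 18.4 to 26.6. A further one, Cldn5, had no counts in any library but 76.8 to 129 FPKM after SCI, against 89.1 to 112 in control, and all 7 together summed to 121 to 136, 152 to 163 and 153 to 187 FPKM, against 113 to 131. Fibroblast markers were higher in 3, 4 and 1 of 4 tested, with sums of 346 to 501, 418 to 664 and 326 to 436 FPKM, against 104 to 238 for all 5 in the tables, of which 1 stayed at the 0.1 FPKM floor in control. Schwann cell markers were higher in 1, 3 and 4 of 4, with 549 to 1018, 940 to 1233 and 1336 to 1748 FPKM, against 462 to 776. Microglia and macrophage markers were higher in 6 of 7 at each time, with 595 to 773, 445 to 472 and 379.6 to 434 FPKM, against 120.5 to 138. Of 8 astrocyte markers 3, 2 and 3 were higher and 1 was lower at 1M, with sums of 6214 to 7147, 8703 to 8928 and 8909.9 to 9409 FPKM, against 4245 to 4800. Most of this sum came from Gfap and S100b, with means of 4947 and 3157 FPKM at 3M. In mean CPM, Gfap had 19100 at 3M against 7279 in control, and S100b 5900 against 6247. The median log2 fold change of the 8 markers was 0.37, 0.14 and 0.26 at 1M, 3M and 6M. All 7 neuron and all 7 oligodendrocyte markers were lower at each time. Over all tested genes 25.5%, 29.7% and 26.8% were higher at 1M, 3M and 6M, and 31.5%, 31.4% and 27.2% lower.

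The tested genes whose log2 CPM over the 11 libraries followed these genes most closely were ranked by Pearson r, as a description, since SCI and control form separate groups. For Yap1 they were C7 (0.995), Rfx4 (0.994) and Smad4 (0.992), with r of 0.939, 0.922 and 0.898 over the 8 SCI libraries alone. For Wwtr1 they were Atp10d (0.994), Celsr1 (0.993) and Megf11 (0.993), with 0.881, 0.886 and 0.940. For Tead1 they were Top3a (0.981), Rnpc3 (0.979) and Alg10 (0.979). Cyr61 was followed less closely, by Fam3a (0.936), LOC103692119 (0.935) and Adm (0.935), and Ctgf by Nme7 (0.947), Tnfaip8 (0.938) and Tgfbr3l (0.935).

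Among the 10 genes themselves the correlations over the 8 SCI libraries ranged widely. Amotl2, Lats2 and Tead4 had r of 0.966 (Amotl2 with Lats2), 0.942 (Amotl2 with Tead4) and 0.930 (Tead4 with Lats2), and Ctgf followed Amotl2 at 0.901. Yap1 had 0.855 with Amotl2, 0.804 with Tead4 and 0.754 with Lats2, and Wwtr1 had 0.710 with Amotl2. Cyr61 had 0.832 with Ctgf, against −0.02 with Wwtr1 and 0.179 with Yap1. The 8 points share their tissue and 5 of them a batch.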

How the data were processed

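The authors sequenced poly-A RNA (TruSeq libraries, Illumina HiSeq) of pooled rat spinal cord. They deposited raw counts per gene, made with HTSeq, and FPKM values from Cufflinks 2.2.1 after alignment to Rnor6 with TopHat2 2.1.0, with CASAVA 1.7 also named in the submitters' processing notes. Neither a version nor the strand setting of HTSeq was found in these sources. Deposited FPKM values under 0.1 had been set to 0.1, which held for 41.8% of values. A further 6M library was excluded by the authors and was not analysed here.

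Counts of genes that exceeded 1 FPKM in any library were tested with edgeR 4.0.16 (TMM scaling, robust quasi-likelihood test, 1 fit over 11 libraries, Benjamini-Hochberg adjustment over all 14867 tested genes) in R 4.3.3. CPM values are TMM-scaled, and FPKM values were used for the filter, for levels between genes, for sums, shares and ratios, and in the limma alternatives. Alternatives used DESeq2 1.42.0, limma 3.58.1 on log2(FPKM + 1) and log2(FPKM + 0.1), other scalings and other filters. Others used a replicate block, each library left out or the counts of 1M replicate 1 halved. The fit was tested on simulated data. Named genes were the 10 genes themselves, up to 4 genes of each list with the largest absolute log2 fold change among those called at 3M against control, and the 3 genes closest in Pearson r. The genes and lists were chosen with earlier results of these data known. Promoters came from RefSeq, and a planned comparison of protein sequences was not run. Replicates are pools of separate rats, and p-values measure the spread between pools.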

Additional observations from a re-analysis of the deposited data

Results flagged for a closer look

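4 of the genes differed between times after SCI by the edgeR contrast of those times. Tead4 was higher than at 1M by a log2 fold change of 0.77 at 3M and 0.62 at 6M. Ctgf was higher than at 1M by 0.96 at 3M and 0.97 at 6M, and Amotl2 by 0.59 at 3M and 0.54 at 6M. Cyr61 was higher than at 1M by 1.18 at 6M. At 6M time and batch cannot be told apart. The calls at 6M against 1M were lost in 18 of 22 alternative settings for Tead4, 16 for Ctgf, 11 for Cyr61 and 4 for Amotl2, and leaving out 1 library moved Tead4 to between 0.29 and 0.87. At 3M against 1M they were lost in 7 of 23 settings for Tead4, 10 for Ctgf and 3 for Amotl2. The 4 ependymal markers were all higher in the same 2 contrasts, where 5.02% and 6.12% of all tested genes were. So were 3 of 7 pericyte and smooth muscle markers in both, and 1 and 3 of 4 Schwann cell markers. Astrocyte markers were higher in 2 and 1 of 8, and endothelial markers in 1 of 6 in both. Microglia and macrophage markers were lower in 4 and 3 of 7, and neuron markers in 2 and 1 of 7. The share of all tested genes that were lower in these contrasts is not given here. With DESeq2 size factors, 1235 and 1463 of 14867 tested genes were called in either direction. The part of these cell types in the differences was not tested.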

How the results depend on the processing

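No result reversed its direction. Against control, the count of genes past the threshold stayed at 5, 8 and 8 for 1M, 3M and 6M with the replicate block and with 1 batch per group, and was 3, 4 and 5 at an adjusted p under 0.01 and a fold over 2. In deviations from the group means, 4 of 15 same-numbered pairs of libraries correlated over 0.1, and 11 of 30 differently numbered pairs did. With 2 or 3 libraries per group these deviations offset each other, so they cannot show that pairing was absent. For 3M against 1M the count of 3 was 1 with limma on log2(FPKM + 0.1), 5 with only the groups compared, 2 with the replicate block, 4 within batch 2 and 0 to 5 when 1 library was left out. For 6M against 1M the count of 4 was 2 with DESeq2 size factors, total counts or limma on log2(FPKM + 1), 1 with limma on log2(FPKM + 0.1) or no FPKM filter, 0 with only the groups compared or the replicate block, and 0 to 4 when 1 library was left out. Calls over all tested genes, in either direction, also varied. For 3M against 1M they were 2200 with only the groups compared, 632 with the replicate block and 2432 within batch 2. For 6M against 1M they were 1463 with DESeq2 size factors, 471 with only the groups compared and 893 with the replicate block. The cause of these differences was not tested. Total counts moved the median gene against control by 0.21 to 0.22 and upper quartile scaling by 0.11 to 0.13. Depth limits Tead1 in control most, at 7 to 20 counts.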
